A study of Mus musculus with 3 samples.

Results

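The intercalated disc is the junction that joins heart muscle cells end to end, and this account concerns FOG2 binding at 9 of its genes. The genes were Jup, Dsp, Pkp2, Dsg2 and Dsc2 of the desmosome, Cdh2 and Ctnna3 of the adherens junction, Gja1 of the gap junction and Tjp1, which encodes a junction scaffold. A peak was counted for a gene when its summit lay nearest to that gene's body among all protein-coding genes, within 100 kb. By this rule 25 of the 6166 FOG2 peaks belonged to the 9 genes. The tissue was E12.5 ventricle (the number is the day of gestation) from mouse embryos homozygous for the Fog2flbio allele and for BirA, the biotin ligase, at Rosa26, with 2 FOG2 pulldown libraries and 1 input library made from tissue of this genotype. The labels' genotype field says WT and the antibody field names FOG2, whereas their protocol describes this tagged allele and streptavidin beads. About 20 ventricles were pooled for a replicate. Both pulldown libraries were pooled into a single peak list before deposit, so no value below has a spread between replicates, and nothing is tested. The genes were selected on their peaks in this list, by number and fold, so these values are given as a description.

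Desmosomes anchor intermediate filaments across the disc: the desmosomal cadherins meet between the cells, plakoglobin and plakophilin bind their tails, and desmoplakin ties them to desmin. Adherens junctions do the same for actin through N-cadherin and the catenins, and gap junctions pass the electrical impulse. In the mature mammalian heart these parts mix along the disc, and variants of the desmosomal genes are a known cause of arrhythmogenic cardiomyopathy. FOG2, encoded by Zfpm2, is a zinc finger cofactor of GATA factors.

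None of the promoters of these genes that could be read was covered by a FOG2 peak. RefSeq promoter windows on GRCm38.p6 (mm10), 300 bases each, were matched for 5 of the 9 genes and gave 7 windows, since Ctnna3 has 3 listed starts. No window of these 7 overlapped a peak, and 138 of all 32851 listed windows did (0.42%). The windows of Jup, Dsp and Tjp1 are shown because each of these genes had a FOG2 summit within 5 kb upstream of its listed start, and that of Gja1 because this gene had no summit. They lie at chr11:100397741-100398040 on the minus strand (Jup), chr13:38151044-38151343 on the plus strand (Dsp), chr7:65371195-65371494 on the minus strand (Tjp1) and chr10:56377050-56377349 on the plus strand (Gja1), and are written 5′ to 3′ with the letters GGTGTG (T-box) or GATAA (GATA), on either strand, in capitals.
Jup: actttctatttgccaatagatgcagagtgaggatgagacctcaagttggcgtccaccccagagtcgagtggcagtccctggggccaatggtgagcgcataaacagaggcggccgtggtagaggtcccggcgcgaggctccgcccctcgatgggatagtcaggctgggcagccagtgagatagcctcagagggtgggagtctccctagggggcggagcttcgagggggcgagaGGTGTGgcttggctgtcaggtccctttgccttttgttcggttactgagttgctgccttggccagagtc
Dsp: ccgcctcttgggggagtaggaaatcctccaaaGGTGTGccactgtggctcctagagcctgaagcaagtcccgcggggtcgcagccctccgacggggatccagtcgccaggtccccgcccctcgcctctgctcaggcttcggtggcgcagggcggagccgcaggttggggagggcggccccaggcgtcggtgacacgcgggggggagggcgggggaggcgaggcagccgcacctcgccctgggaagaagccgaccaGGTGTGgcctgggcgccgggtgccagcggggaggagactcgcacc
Tjp1: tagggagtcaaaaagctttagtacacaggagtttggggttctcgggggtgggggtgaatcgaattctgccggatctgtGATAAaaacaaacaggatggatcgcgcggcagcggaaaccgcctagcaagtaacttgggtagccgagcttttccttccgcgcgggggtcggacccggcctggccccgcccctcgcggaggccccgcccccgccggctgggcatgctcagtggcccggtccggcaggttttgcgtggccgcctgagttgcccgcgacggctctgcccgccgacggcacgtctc
Gja1: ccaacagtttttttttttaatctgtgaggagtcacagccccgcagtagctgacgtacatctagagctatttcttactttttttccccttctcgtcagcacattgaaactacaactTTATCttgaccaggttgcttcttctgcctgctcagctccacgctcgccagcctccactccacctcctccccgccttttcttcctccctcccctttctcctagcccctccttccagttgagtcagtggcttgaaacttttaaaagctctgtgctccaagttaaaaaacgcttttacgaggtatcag

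The T-box letters GGTGTG stood once in the Jup window, 18 bases upstream of the listed start, and at 2 places in the Dsp window, 218 bases upstream and 5 bases downstream. Of all windows, 19.0% held them. The longer GATA letters AGATAA occurred in the Gja1 window alone among the 7, 135 bases upstream, against 11.2% of all windows. The shorter GATAA, which that match contains, also occurred in the Tjp1 window and in 2 of the Ctnna3 windows, against 25.4% of all windows. The letters of the TEAD (GGAATG), E-box (CAGCTG) and NK2 (AAGTG) motifs each occurred in 1 of the 7 windows, always of Ctnna3, against 14.7%, 16.3% and 46.4% of all windows. The SRF and MEF2 motifs occurred in none of the 7, against 1.63% and 0.557% of all windows. These are letter matches and not sites, and sequence under the peaks was not analysed here.

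A summit was assigned to 7 of the 9 disc genes. Jup had 8, Cdh2 had 7, Ctnna3 had 5, Pkp2 had 2, and Dsp, Dsc2 and Tjp1 had 1 each, while Dsg2 and Gja1 had none. Among all 21631 protein-coding genes 13.6% had a summit, and nothing is read from the difference, since the genes were picked with these peaks known. For 6 of the 9 genes a summit lay inside the gene body, against 8.31% of all protein-coding genes. Jup and Cdh2 together held 15 of the 25 summits.

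Fold is the authors' peak caller's ratio of pulldown to control at the summit. The 25 summits ranged from 4.25- to 32.2-fold with a median of 7.31-fold, against a median of 6.39-fold over all 6166 peaks (quartiles 5.41 and 8.66). Of the 25, 8 reached 10-fold (32%), as did 16.9% of all peaks. All 8 were at Cdh2, Pkp2 and Jup. Nothing is read from the shares, since fold was part of how the genes were selected. Behind most folds stood few fragments. The number of pulldown fragments at a summit, worked back from the caller's fold and p-value, was 8 to 129 at the disc genes with a median of 13, and 12 over all peaks. Intervals given below are exact 95% Poisson intervals on those fragments, or on the fold that they give at a fixed control level, and cover counting error only. By their strongest peak the genes ordered as Cdh2, Pkp2, Jup, Ctnna3, Dsp, Tjp1 and Dsc2. The interval of the strongest Cdh2 peak overlapped none of the others, and the strongest peaks of the other 6 genes overlapped each other throughout.

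**Figure D1:**
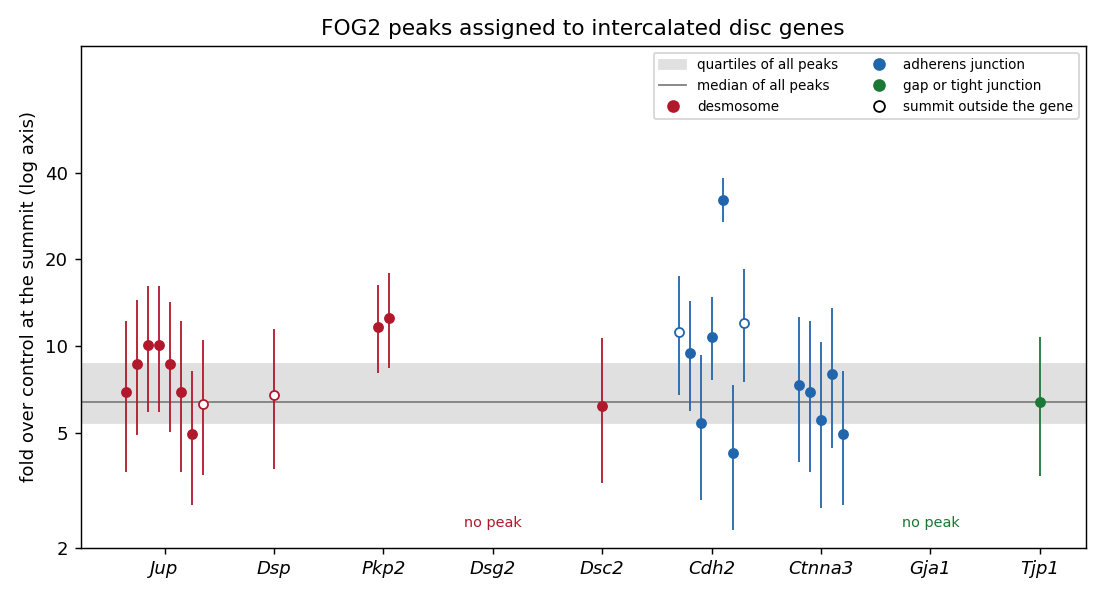
Fold over control at each FOG2 summit (log axis) of the 9 genes, ordered along each gene, with bars for the 95% counting interval and open points for summits outside the gene body. The Cdh2 summit at 32.2-fold stands alone, and every other interval reaches into the grey band, which spans the quartiles of all peaks.

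Plakoglobin, the product of Jup, is the armadillo protein shared by desmosomes and adherens junctions, and its gene carried a row of 7 closely spaced summits. Jup lies on chromosome 11, 100368856 to 100397839, on the minus strand with its listed start at 100397790. Read from the low-coordinate end, which is the 3′ end, the summits inside the gene were 6.93-, 8.70-, 10.1-, 10.1-, 8.70-, 6.93- and 4.96-fold. They rested on 10, 13, 15, 15, 14, 10 and 13 fragments. The lowest fold thus had as many fragments as one of the 8.70-fold summits, and its control level was 1.83 against 0.608 there. All 7 intervals shared the range of 5.92- to 8.22-fold, so at this depth the 7 summits could not be ranked.

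The Jup summits followed each other at gaps of 1.21 to 2.64 kb and spanned 10.7 kb, from 100372381 to 100383093. They lay 14.7 to 25.4 kb downstream of the listed start, between 12.2% and 49.1% of the gene's length from its 3′ end, and no summit lay in the rest of the body. The peaks were 195 to 523 bp wide, and the strongest, both at 10.1-fold with 15 fragments (8.40 to 24.7), spanned 100376746 to 100377015 and 100378044 to 100378488. Whether these summits coincide with exons, which would bear on the source of the DNA at them, was not tested, because the gene table used here gives only the ends of each gene. Control levels were at the background of 0.588 at 4 of the 7 summits and between 0.608 and 1.83 at the other 3.

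No other stretch of 10.7 kb held 7 summits in this list, in which 80.6% of summits were alone in any such stretch. The closest was at Larp7 on chromosome 3 with 6, and stretches at Cdc42bpa and Fam204a held 5. These genes were named after their values were seen. The length of the stretch was set by the 7 Jup summits themselves, and Jup was selected on its peaks. Nothing is read from its count for that reason. Per 10 kb of gene body Jup had 2.42 summits, the fourth highest value of the 248 genes with 3 or more summits inside, after H2-K1 (8.68), Klf4 (5.62) and Larp7 (3.61), and the median of the 248 was 0.115. Nor is anything read from this rank. When summits within 3 kb of each other were merged, a setting chosen after seeing the data, the row in Jup became 1 summit.

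The eighth Jup summit lay 4.75 kb upstream of the listed start, at 100402543, and was 6.32-fold with 13 fragments (6.92 to 22.2). A further summit 1.33 kb beyond it, 7.25-fold with 13 fragments, was closer to the neighbouring P3h4 and was counted there, 6.04 kb from Jup. Within 400 kb on the other side, where keratin genes lie, a single summit stood 302 kb away (4.97-fold, 7 fragments).

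**Figure D2:**
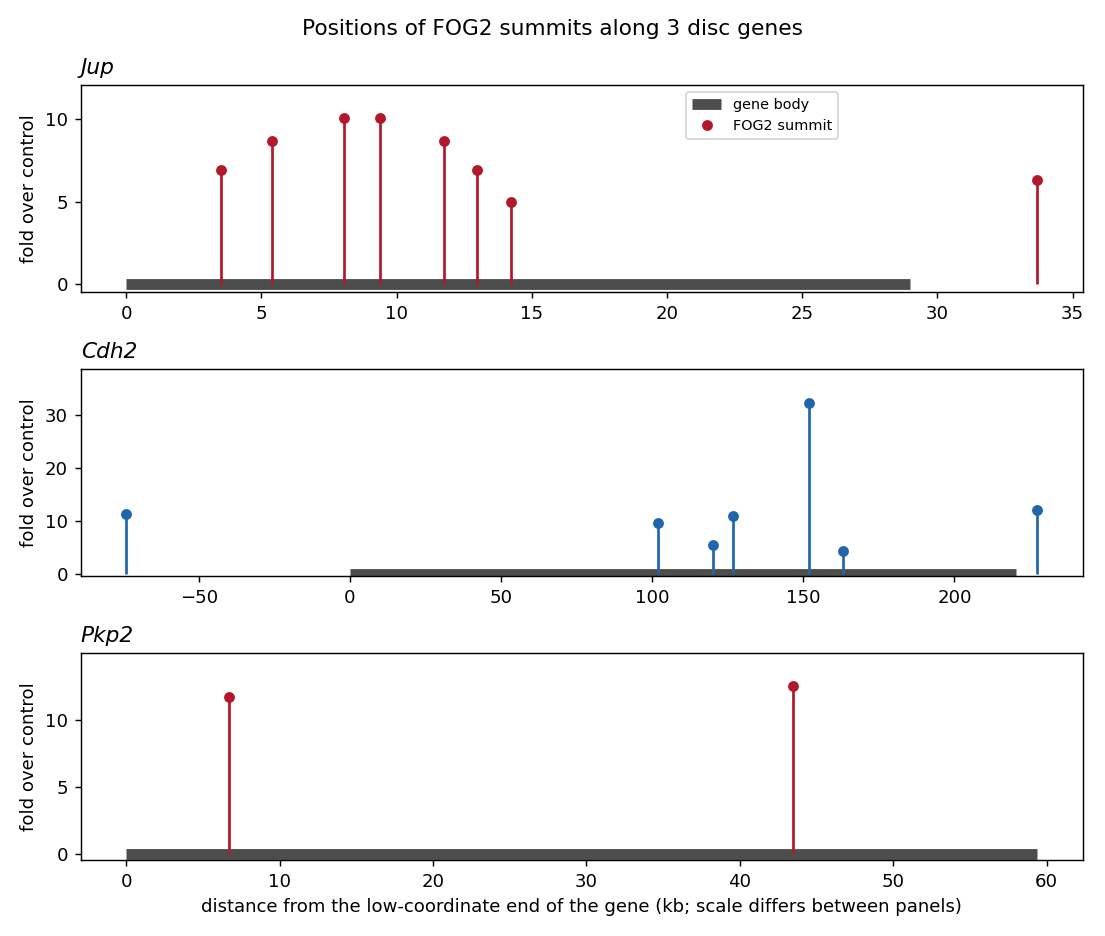
Fold over control of each FOG2 summit along Jup, Cdh2 and Pkp2, against the distance in kb from the low-coordinate end of the gene (grey bar). The 7 summits in Jup fill one stretch of 10.7 kb, whereas Cdh2 has 5 between 102 and 163 kb from its low-coordinate end and 1 on each side of the gene.

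Desmoplakin, the linker to intermediate filaments, had its single summit outside the gene. Dsp is on chromosome 13, 38151294 to 38198577, and the peak at 38148365 to 38148618 had its summit 2.76 kb upstream of the listed start, at 6.77-fold with 12 fragments (6.20 to 21.0). Further summits near Dsp belonged to other genes, the nearest 98.2 kb away at 4.06-fold and closer to Gm47978.

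Plakophilin-2, an armadillo protein of the desmosomal plaque, had 2 summits, both inside the gene and both above 10-fold. Pkp2 spans 16213345 to 16272712 on chromosome 16. One peak, at 16219880 to 16220203, was 11.7-fold with 32 fragments (21.9 to 45.2). The other, at 16256661 to 16257056, was 12.49-fold with 27 fragments (17.8 to 39.3). Their summits lay 36.8 kb apart, and each rested on about as many fragments as the other within counting error. Pkp2 thereby had fewer summits than Jup, but each with more fragments than any in Jup, although these counting intervals overlapped that of the strongest summits in Jup.

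The desmosomal cadherin genes, which encode the adhesive proteins themselves, had few summits. Dsc2 on chromosome 18, 20030633 to 20059554, held 1 inside the gene, at 20052457 to 20052650, with 6.21-fold and 11 fragments (5.49 to 19.7). For Dsg2, at 20558074 to 20604526 on that chromosome, the nearest summits were 251 kb away, inside Trappc8 (6.32-fold), and 266 kb away, next to Dsg1c (9.86-fold). All 9 desmocollin and desmoglein genes stand in a cluster of 644 kb there, and this cluster held 2 summits, those at Dsc2 and Dsg1c. That was 3.11 per Mb, against 2.87 per Mb for chromosome 18 up to its last gene. With only 2 summits in the cluster, these densities could not be told apart or called alike.

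Cdh2 had the strongest peak of the 9 genes. It encodes N-cadherin, the classical cadherin of the heart muscle cell, and lies on chromosome 18, 16588877 to 16809246. The peak at 16740607 to 16741241, inside the gene and 635 bp wide, was 32.2-fold (26.9 to 38.2) with 129 fragments (108 to 153). It ranked 42nd among all 6166 peaks by fold. The control there was also raised, at 3.04, the highest control level among the 25 summits. This was 5 times 0.608, a common level just above the background that was taken as the value of 1 input read. Whole multiples of it were found at 37.9% of all peaks.

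Around this peak the other Cdh2 summits were of varied strength. A neighbour 25.1 kb before it was 10.8-fold with 36 fragments (25.2 to 49.8), over a control level of 2.43. The remaining summits inside the gene were 9.47-, 5.41- and 4.25-fold with 20, 11 and 11 fragments. The last of these was the weakest of the 25. The 2 summits outside the gene had higher folds than those 3. One was 12.03-fold (19 fragments, 11.4 to 29.7) at 6.97 kb from the high-coordinate end. The other was 11.2-fold (17 fragments, 9.90 to 27.2) at 74.0 kb from the low-coordinate end. The fold intervals of both overlapped those of the 9.47- and 5.41-fold summits. The interval of the 11.2-fold summit also overlapped that of the 4.25-fold summit, and that of the 12.03-fold summit did not. The summit at 74.0 kb was the farthest counted. The next one out, at 120 kb (6.21-fold, 11 fragments), fell beyond 100 kb and was assigned to no gene.

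Ctnna3 had 5 summits, all inside the gene and none above the upper quartile of all peaks. It encodes alpha-T-catenin, which links the cadherin complex to actin and binds plakophilin. From the low-coordinate end, where its first listed start lies, the summits were 7.31-, 6.93-, 5.55-, 8.02- and 4.96-fold with 11, 10, 8, 12 and 13 fragments, and every interval overlapped every other. They were between 89.6 and 725 kb downstream of the nearest listed start. The 5.55-fold summit also lay inside Lrrtm3, a gene nested in Ctnna3, and was counted for both. Ctnna3 spans 1574 kb on chromosome 10, from 63430098 to 65003667, and the count is set beside that size further on.

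The genes of the gap junction and its scaffold had 1 summit between them. Gja1 encodes the main connexin of working ventricular muscle and lies on chromosome 10, 56377300 to 56390419. It had none, and the nearest summit was 327 kb away (8.08-fold, 12 fragments, 6.20 to 21.0), with no protein-coding gene within 100 kb of it. Tjp1 encodes a scaffold protein that binds this connexin, and lies on chromosome 7, 65296165 to 65527850. Its summit, in the peak at 65371706 to 65371881, was inside the gene body and 0.53 kb upstream of the listed start whose window is shown above. That peak was 6.39-fold with 12 fragments (6.20 to 21.0).

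The number of summits per gene was set beside the territory of each gene, the stretch of genome nearer to it than to any other protein-coding gene within 100 kb. Jup had 8 summits in a territory of 0.04 Mb, which at the mean density of the series would hold 0.1. It had 1 summit when summits within 3 kb of each other were merged, a setting chosen after seeing the data. The row inside Jup then became 1, and the summit upstream of Jup joined a stronger one counted for P3h4. Cdh2 had 7 where 1.05 would be held, and Pkp2 had 2 where 0.271 would. Ctnna3 with 5 against 4.23 and Tjp1 with 1 against 0.903 were close to that density, and Dsp and Dsc2 had 1 each against 0.241 and 0.138. Dsg2 and Gja1 had 0 against 0.211 and 0.469, so fewer than 1 would be held at either gene. Over the 9 genes 25 summits stood against 7.61, and without Jup and Cdh2, the genes with the most summits, 10 stood against 6.46. Nothing is read from these differences, since the number of peaks was part of how the genes were selected.

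**Figure D3:**
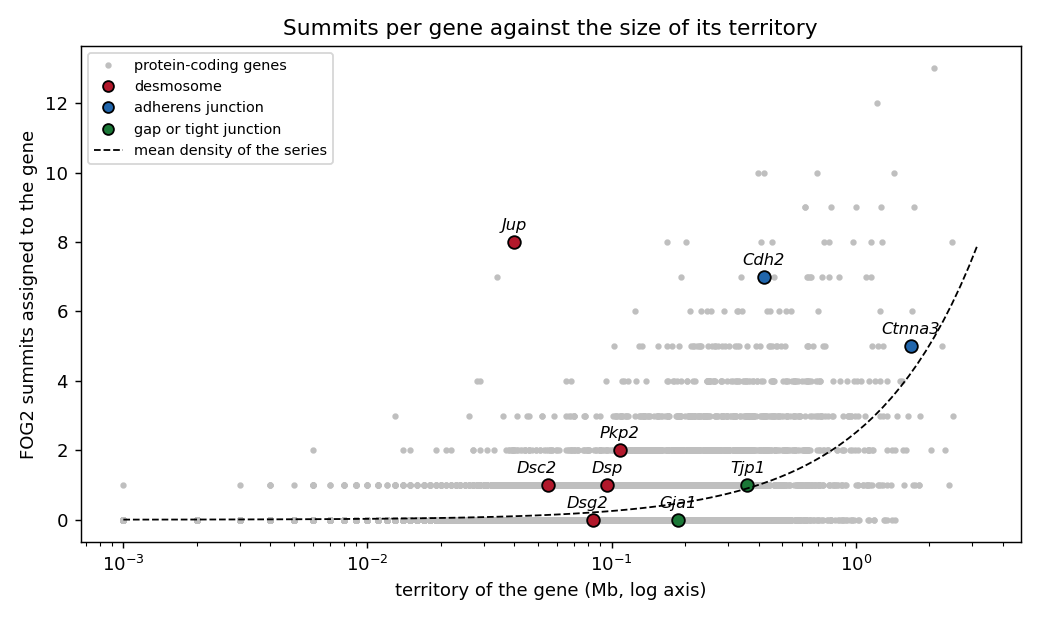
Number of FOG2 summits assigned to each protein-coding gene against its territory in Mb (log axis), with the 9 disc genes in colour and the mean density of the series as a broken line. Jup, with 8 summits in 0.04 Mb, has its nearest point of like territory in Larp7 with 7, and Ctnna3 and Tjp1 lie near the line.

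Among the 2163 genes in the same decile of territory as Jup, 6.61% had any summit, and the next highest number after the 8 unmerged summits of Jup was 7, at Larp7. In the decile that holds Cdh2, Ctnna3 and Tjp1 53.0% of genes had a summit. As many summits as Cdh2 or more were found at 34 genes of that decile, as many as Ctnna3 or more at 89, and as many as Tjp1 or more at 1147. Across the genome 23 genes had 8 or more summits. The genes with exactly 8 whose strongest fold was closest to that of Jup, among 10 candidates, were Nfia (11.6-fold), Nav3 (12.3-fold), Palld (14.7-fold) and Myocd (17.3-fold). The likeness is in count and fold only, since these genes are 541, 774, 391 and 96.4 kb long against 29.0 kb for Jup.

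Other junction genes were counted in 4 lists, beside the same 13.6% of all protein-coding genes. These lists too were chosen with earlier results of these data known. Further genes of the adherens junction had a summit in 6 of 11. These were Shroom3, an actin organiser (4 summits, strongest 10.4-fold), Ctnnb1 for beta-catenin (1, 64.3 kb outside the gene, 9.28-fold), Nectin3 (1, 41.2 kb outside, 7.46-fold), Pkp4 (1 inside, 6.73-fold), Ctnnd1 for p120-catenin (2 inside, 5.97-fold) and Vcl for vinculin (2 inside, 5.76-fold). Ctnna1, the more widely expressed relative of Ctnna3, had none, and neither had Afdn, Arvcf, Nectin1 and Nectin2. The list held 11 summits where its territories would hold 4.95 at the mean density.

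Of 10 genes of gap junctions, tight junctions and channels at the disc, 4 had a summit. Ank3, which encodes the membrane scaffold ankyrin-G, had 9 inside the gene, the strongest 18.04-fold with 39 fragments (27.7 to 53.3). Ank2 had 2 (8.12-fold). The connexin gene Gja5 had 2 (strongest 9.50 kb outside, 5.80-fold) and the potassium channel gene Kcnj2 had 1 (67.4 kb outside, 5.80-fold). The connexin genes Gjc1 and Gja3, the Tjp1 relative Tjp3, and Cxadr, Cldn5 and Dlg1 had none. The 14 summits of this list compare with 5.21 at the mean density, and Ank3 alone held 9 of them.

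Genes of filaments and linkers at the disc had a summit in 4 of 15, at Tln2 for talin-2 (6 summits, strongest 17.98-fold), Lmo7 (4, 9.56-fold), Actn2 for alpha-actinin (3, 9.20-fold) and Ldb3 (4, 5.86-fold). The desmin gene Des had none, and neither had Xirp1, Xirp2 and Nrap, whose proteins lie at the disc. The remaining 7 without a summit were Fermt2, Ilk, Plec, Tln1, Tmem43, Vim and Zyx. This list held 17 summits against 4.35 at the mean density.

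Desmosome genes of stratified epithelia had a summit in 2 of 13, close to the 13.6% of all genes. Dsg1c had 1, at 6.73 kb outside the gene (9.86-fold, 16 fragments, 9.15 to 26.0). Perp had 3, all outside, the strongest 4.55 kb away (7.67-fold, 16 fragments). None lay inside a gene of this list. The desmosomal relatives Dsc1, Dsc3, Dsg1a, Dsg1b, Dsg3, Dsg4, Pkp1 and Pkp3 and the cornified envelope genes Cdsn, Evpl and Ppl had none. The list held 4 summits in all. As in the other 3 lists, this was more than its territories would hold at the mean density.

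**Figure D4:**
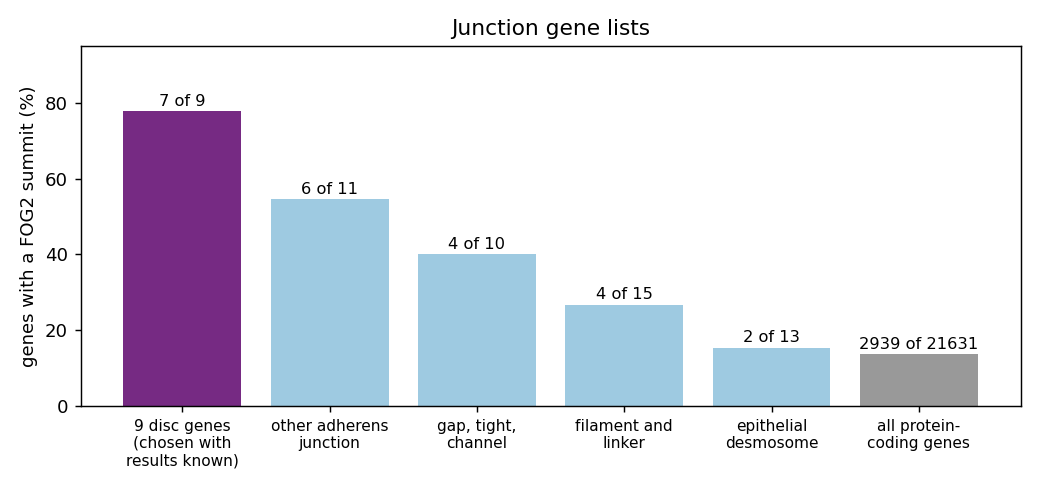
Percentage of genes with a FOG2 summit in the 9 disc genes, in 4 other lists of junction genes and among all 21631 protein-coding genes, with the numbers of genes above the bars. The 9 disc genes were chosen with their peaks known, and the 4 other lists with earlier results of these data known. The epithelial desmosome genes (2 of 13) lie close to all genes in this percentage, which leaves out the number of summits per gene.

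The median strongest fold of the genes with a summit was 8.02 for the disc genes, 7.10 for the other adherens junction genes, 6.96 for the gap, tight junction and channel genes, 9.38 for the filament and linker genes and 8.76 for the epithelial genes, against 6.93 over all genes with a summit. Median territories in the same order were 0.108, 0.148, 0.129, 0.065 and 0.064 Mb, all above the 0.045 Mb of all genes, and a larger territory gives a gene more room to be the nearest. How far territory accounts for the shares was not tested. In the same order, the median folds rest on 7, 6, 4, 4 and 2 genes, against 2939 over all genes. A gene with more summits has more chances of a high strongest fold. The control was input, with no pulldown from untagged hearts among the libraries analysed here. Expression was not measured, and the gene nearest to a summit need not be the one it regulates.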

How the data were processed

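FOG2 was pulled down on streptavidin beads from E12.5 ventricle chromatin, fixed for 10 minutes in 1% formaldehyde, per the labels' protocols. The submitters' processing notes name the build mm10 and, without settings, Bowtie2 2.3.2, SAMtools 1.5, Picard and MACS2 2.1.1. The authors deposited a single list of 6166 peaks on both pulldown libraries pooled, filtered against a blacklist per the deposited peak list's name. Its peak names also carry the word FLAG. For each summit the deposited list gives the caller's fold (a ratio of pulldown over control, not logged), its −log10 p and its −log10 q. The deposited score, 10 times that −log10 q cut to a whole number, was left aside. The list gives no depth per library.

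Fragments were recovered by solving a Poisson tail and a fold with 1 added to both sides for a whole number, which matched the −log10 p within 0.001 in 100% of peaks (in 83 another whole number matched too, among them the 8.02-fold summit in Ctnna3). On 1978 summits simulated with the same formulas, the procedure returned the true number in 100%, which checks the solving and not the formulas. Gene ends came from the RefSeq gene table of GRCm38.p6, with 21631 protein-coding genes on the 20 chromosomes that had peaks. A summit inside several gene bodies was counted for each. Territories were measured on a 1 kb grid. Python 3.11.15, SciPy 1.17.1 and pandas 2.3.3 were used. The 9 genes, the other lists and the naming rule (all 9 genes, all genes with a summit in each list, 4 genes closest to Jup) were chosen with earlier results of these data known. Of the gap junction, tight junction and channel list, 2 genes are not reported here and were left out of its counts. No test was run.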

Additional observations from a re-analysis of the deposited data

How the results depend on the processing

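Over the 10 other settings, 6 or 7 of the 9 disc genes had a summit, with 18 to 28 summits in all, while the share of all protein-coding genes ranged from 8.01% in the stronger 50% of peaks to 33.3% when every gene within 100 kb was counted. Dsc2 lost its summit in the stronger 50% of peaks. Ctnna3 had 3 summits there, 3 with the −log10 q held to 5 or more, and 0 by the nearest gene end, since its summits lie far from the ends of the gene. Merging summits within 3 kb was a setting chosen after seeing the data. It left Jup with 1 summit in place of 8 and the 9 genes with 18. The row inside Jup became 1, and the summit upstream of Jup joined a stronger one counted for P3h4. Among the other lists, the gap junction, tight junction and channel list had 2 genes with the −log10 q held to 5 or more and 2 in the stronger 50% of peaks. The epithelial list had 1 gene when genes of every biotype could take a summit and 8 when every gene within 100 kb was counted, where the filament and linker list had 9. The order of the genes by strongest peak was the same for all 7 by −log10 q. Dsp had 2 summits in place of 1 when every gene within 100 kb was counted. The other 57 counts and densities over the lists or all 9 genes, and 84 counts at single genes, stayed within 1.5 times of those reported. No paired analysis was possible because the list was pooled and no result comes from a test, and no replicate could be left out for that reason. Most summits rested on 8 to 20 fragments, which limits any ranking among them.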
